A study of Mus musculus with 12 samples.

Results

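The contacts of the Hoxb2 and Hoxb3 promoters were examined in mouse embryonic stem cells (ESCs). In these, Polycomb repressive complex 1 (PRC1) was catalytically active, had lost its catalytic activity or had been removed. A contact is 1 row of the deposited table: a captured promoter fragment, the bait, paired with another stretch of the same chromosome, the other end. Members were all rows whose bait position equals that of Hoxb2 or Hoxb3 in the deposited list of captured genes, which gave 59 contacts, 24 of Hoxb2 and 35 of Hoxb3, of 842 in the whole table and 414 from the 24 named baits. Of these 59, 19 overlapped a binding site that RING1B shares with PCGF2, 8 for Hoxb2 and 11 for Hoxb3, and are called PCGF2 contacts. The other 40, 16 for Hoxb2 and 24 for Hoxb3, are called contacts with other sites.

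Hoxb2 and Hoxb3 encode homeodomain transcription factors that pattern the hindbrain, and lie towards the early-expressed end of the HoxB cluster. In ESCs the Hox clusters are silent and covered by Polycomb chromatin, in which PRC1 ubiquitylates histone H2A and Polycomb repressive complex 2 methylates H3K27. PCGF2 is a core subunit of canonical PRC1, the form that reads H3K27 methylation through CBX proteins and is known to hold distant Polycomb sites together. CaptureC reports how often a bait fragment is ligated to other fragments after crosslinking, so that fragments close together in the nucleus gain reads.

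The 12 samples formed 4 groups of 3 replicates, all in ESCs of the E14 strain. PRC1CPM cells, which are 1 clone (41), carry I50A and D53K mutations in Ring1a and a floxed Ring1b whose wild-type exon is exchanged for one with I53A and D56K by ERT2-Cre from the Rosa26 locus. One group was left untreated and the other was given OHT at 800 nM for 72 h. The Ring1a mutations, made to remove the contribution of RING1A, were present in both of these groups. PRC1DEG cells express Tir1, lack Ring1a and have RING1B fused to the AID degron, and received 0.5 mM auxin for 6 h. The Control line has Tir1 only, with Ring1a intact and RING1B untagged, and received the same auxin treatment. The PRC1DEG and Control groups therefore differ in the Ring1a deletion and the tag as well as in RING1B degradation, and these cannot be told apart here. Each group was deposited as 1 column pooled from its replicates, so no spread between replicates and no p-value can be given, and the 2 experiments are not on a shared scale.

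The Hoxb2 bait (chr11:96350363-96352183, GRCm38, 1821 bp) contained the transcription start site (TSS) of Hoxb2. The Hoxb3 bait (chr11:96343553-96345280, 1728 bp) contained 1 of the 2 TSSs annotated for Hoxb3. Both genes lie on the plus strand and the baits were separated by 5082 bp. They were captured by a pair of oligonucleotides each, which are shown because they define where every contact was viewed from. Capitals mark the DpnII site at which the fragments were cut, and all are given on the plus strand.
Hoxb2 bait, chr11:96350363-96350482: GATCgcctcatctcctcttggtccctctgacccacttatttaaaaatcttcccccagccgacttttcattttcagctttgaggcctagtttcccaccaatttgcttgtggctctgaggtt
Hoxb2 bait, chr11:96352068-96352187: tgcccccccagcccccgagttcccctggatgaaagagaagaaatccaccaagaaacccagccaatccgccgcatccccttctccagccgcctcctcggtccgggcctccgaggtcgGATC
Hoxb3 bait, chr11:96343553-96343672: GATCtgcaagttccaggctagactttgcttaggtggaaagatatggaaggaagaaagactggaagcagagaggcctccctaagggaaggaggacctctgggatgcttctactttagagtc
Hoxb3 bait, chr11:96345165-96345284: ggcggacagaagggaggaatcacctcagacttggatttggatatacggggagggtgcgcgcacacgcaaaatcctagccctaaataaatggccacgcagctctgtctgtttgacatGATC

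The 2 baits overlapped at many of their other ends, and only Hoxb3 had contacts at Lhx1, Tbx4, Nfe2l1 and Cdk5rap3. Within 1 Mb, 9 PCGF2 contacts and 1 contact with another site lay on the side of Hoxb13, whereas 2 PCGF2 contacts and 38 contacts with other sites lay on the side of Skap1, a T cell adaptor gene that flanks the cluster. Kind of site and side of the bait therefore largely coincided within 1 Mb. A further 8 PCGF2 contacts and 1 contact with another site lay over 1 Mb away. A TSS of a protein-coding gene lay in 9 of the 19 PCGF2 contacts and in 0 of the 40 others, and 27 of the 40 overlapped Skap1. Of the 40, 34 were single fragments, against 8 of the 19, and a wider stretch has more room for a TSS. At the other 22 named baits a TSS lay in 49 of 111 PCGF2 contacts and in 12 of 244 contacts with other sites. The other ends of PCGF2 contacts had a median GC content of 54.4% (from 43.9 to 65.3%) and an observed over expected CpG ratio of 0.47, against 46.0% (from 39.8 to 53.1%) and 0.29 at other sites.

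To show this range of sequence, 2 stretches of other ends are printed, each as the first 300 bases of a fragment on the plus strand of GRCm38 with CpG dinucleotides in capitals. The first opens the fragment near Cbx8 that had the highest score in the far contact of Hoxb2, and holds 22 CpGs. The second opens the fragment upstream of Hoxb13 that was the summit of both baits there, and holds 4.
near Cbx8, chr11:119053685-119053984: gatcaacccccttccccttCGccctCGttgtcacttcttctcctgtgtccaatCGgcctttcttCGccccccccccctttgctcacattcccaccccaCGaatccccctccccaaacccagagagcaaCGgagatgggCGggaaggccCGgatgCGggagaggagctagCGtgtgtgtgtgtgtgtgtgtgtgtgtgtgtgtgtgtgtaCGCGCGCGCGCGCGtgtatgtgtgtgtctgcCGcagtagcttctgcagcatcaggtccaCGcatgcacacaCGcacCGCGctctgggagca
upstream of Hoxb13, chr11:96175740-96176039: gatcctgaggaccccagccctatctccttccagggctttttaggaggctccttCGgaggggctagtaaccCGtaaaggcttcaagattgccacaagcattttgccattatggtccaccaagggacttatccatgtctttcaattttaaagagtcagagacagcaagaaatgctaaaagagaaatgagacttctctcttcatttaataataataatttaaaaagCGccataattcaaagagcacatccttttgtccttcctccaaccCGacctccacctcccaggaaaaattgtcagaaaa

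At PCGF2 contacts the treated group had fewer normalized reads than its reference in both experiments. Among PCGF2 contacts with more than 4 reads, those over 20 Mb away had lower percentages than those inside the cluster. These far contacts entered the data only through calls in untreated or Control cells, so their lower percentages are not independent of that choice. The normalized read count per fragment was lower after OHT at 17 of the 19, and lower in PRC1DEG than in Control cells at all 19. Its median stood at 59.5% of untreated cells after OHT and at 30.8% of Control cells in PRC1DEG cells. At the 40 contacts with other sites the medians were 99.2% and 118%. In all that follows a percentage is the normalized count per fragment as a share of the reference group, untreated or Control. Its 95% interval (Wilson) covers counting error only, since the replicates of each group were pooled. Molecular identifiers are not described for the reads.

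**Figure D1:**
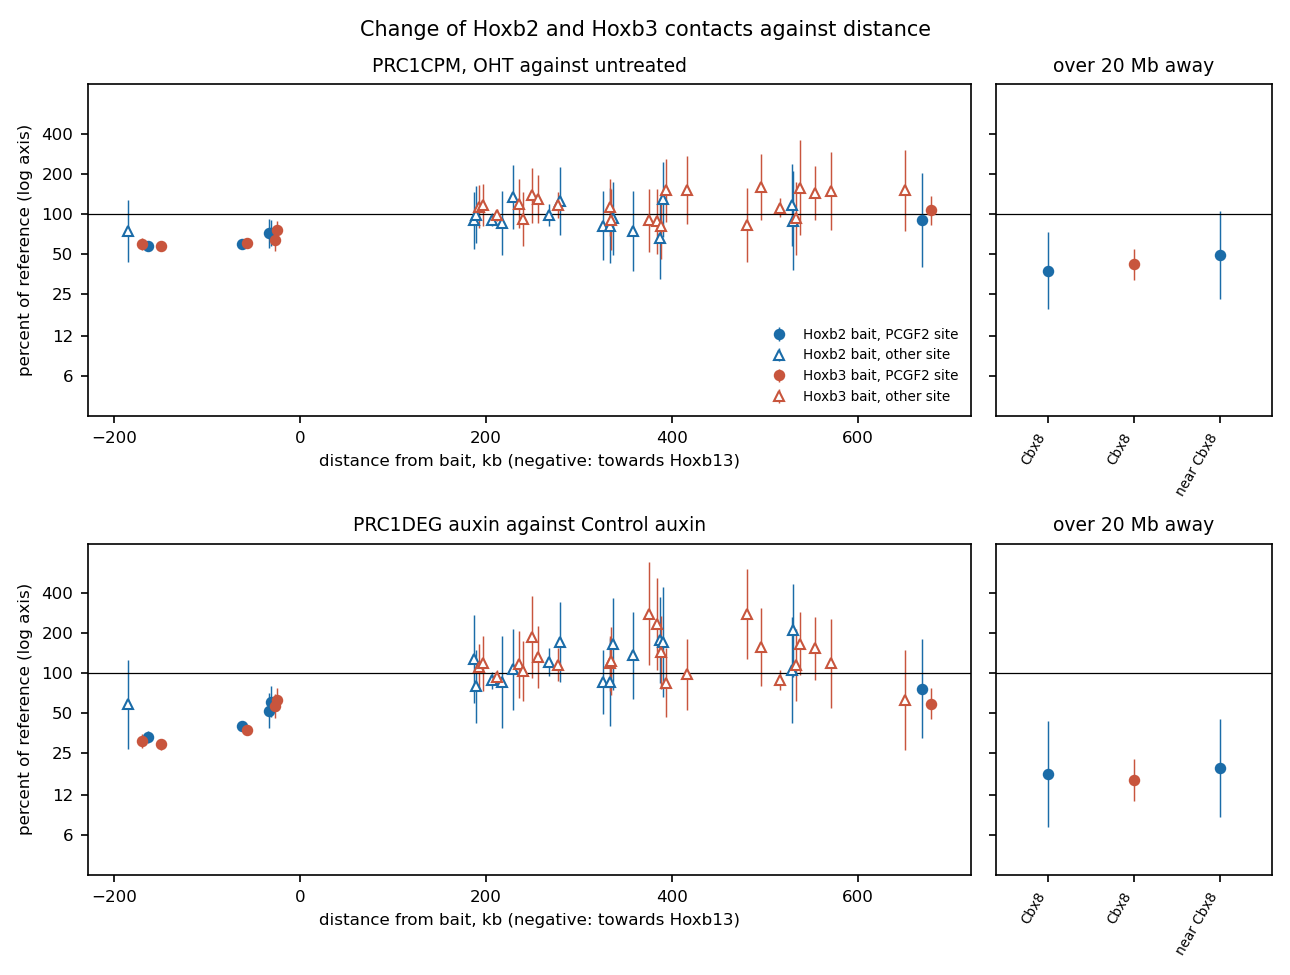
Normalized read count per fragment as a percentage of the reference group (log axis) against distance from the bait in kb, with contacts over 20 Mb away in the panels at the right. Points are contacts with more than 3 weighted reads in either group, bars are 95% Wilson intervals, and 6 contacts over 1 Mb away, those at Lhx1 and Tbx4 among them, are not drawn. Filled points on the side of Hoxb13 and at Cbx8 lie below 100% in both panels, and open triangles on the side of Skap1 lie around it.

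The nearest PCGF2 contacts were both at Hoxb4, which encodes a homeodomain factor known for expanding blood stem cells. The fragment at chr11:96317195-96318052, which overlaps Mir10a and lies 0.22 kb from the Hoxb4 TSS, was reached by both baits. From Hoxb2 it held 154 weighted reads among untreated cells, 101 with OHT, 120 for Control and 67 for PRC1DEG, which is 71.7% (55.8 to 92.1%) and 52.2% (38.7 to 70.3%) of the references. From Hoxb3 it held 268, 157, 239 and 145 reads in the same order, or 64.0% (52.6 to 77.9%) and 56.7% (46.1 to 69.6%). From both baits the treated groups were the lower of each pair.

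The fragment in the Hoxb4 gene itself, chr11:96318790-96320153, was reached by both baits too. From Hoxb2 it held 190, 125, 127 and 83 reads, or 71.9% (57.4 to 90.1%) after OHT and 61.1% (46.3 to 80.4%) in PRC1DEG cells. From Hoxb3, with 335, 232, 249 and 168 reads, it stood at 75.7% (64.0 to 89.5%) and 63.0% (51.9 to 76.6%). These contacts at 25 to 34 kb thus stood between 52.2 and 75.7% of the reference in the treated groups, and every interval lay below 100%. In PRC1DEG cells their percentages were the highest among the PCGF2 contacts inside the cluster.

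The most reads of any contact came from the middle of the cluster, a stretch with the TSSs of Hoxb9, Hoxb8, Hoxb7, Hoxb6 and Hoxb5, the genes that pattern the trunk. From Hoxb2 (chr11:96268591-96307538, 86 fragments, 63.2 kb away) it held 6131 reads among untreated cells, 3335 with OHT, 4055 for Control and 1735 for PRC1DEG. It stood at 59.5% (57.0 to 62.0%) after OHT and at 40.0% (37.8 to 42.3%) in PRC1DEG cells. From Hoxb3 (chr11:96270684-96304264, 75 fragments, 56.9 kb away) it held 8791, 4834, 7060 and 2806 reads, or 60.1% (58.0 to 62.2%) and 37.1% (35.5 to 38.8%). Having the most reads, these contacts had the least counting error.

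Part of this pair of regions was also seen from the opposite end, from the Hoxb5 bait, a fragment of 219 bp within the mid-cluster stretch. The Hoxb5 bait reached a stretch of 25 fragments (chr11:96342889-96358475) that covers the Hoxb2 and Hoxb3 bait fragments together. It held 1190, 641, 1340 and 372 reads, or 58.9% (53.5 to 64.8%) after OHT and 25.9% (23.1 to 29.1%) in PRC1DEG cells. The OHT percentages from the 3 baits therefore lay between 58.9 and 60.1%, whereas in PRC1DEG cells the Hoxb5 bait gave a lower value than the others, with an interval that does not overlap theirs. The stretches compared differ in width between the directions, and the Hoxb5 bait gives no view from Hoxb6 to Hoxb9.

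Hoxb13, the gene that patterns the posterior body and stands apart from the rest of the cluster, and its upstream flank formed the most distant PCGF2 contacts on that side within 1 Mb. The Hoxb2 bait reached them in 1 contact of 69 fragments (chr11:96170981-96203554, 164 kb away) with 2138, 1116, 1459 and 515 reads. The percentages were 57.1% (53.1 to 61.3%) after OHT and 33.0% (29.8 to 36.5%) in PRC1DEG cells. The Hoxb3 bait had this region as 2 contacts.

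The part of Hoxb3 with the Hoxb13 TSS (chr11:96185035-96204575, 44 fragments) held 2016, 1053, 1740 and 540 reads and stood at 57.1% (53.0 to 61.5%) and 29.0% (26.3 to 31.9%). The part upstream of it (chr11:96167765-96180967, 28 fragments, outside the cluster as annotated) held 1177, 641, 1007 and 332 reads, or 59.5% (54.1 to 65.5%) and 30.8% (27.2 to 34.9%). In PRC1DEG cells the percentage was thus lower at Hoxb13 than in the middle of the cluster, and lower there than at Hoxb4, from both baits. The intervals of these 3 places did not overlap, except that of the Hoxb2 contact at Mir10a, which overlapped the mid-cluster one. After OHT the Hoxb13 and mid-cluster intervals overlapped.

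**Figure D2:**
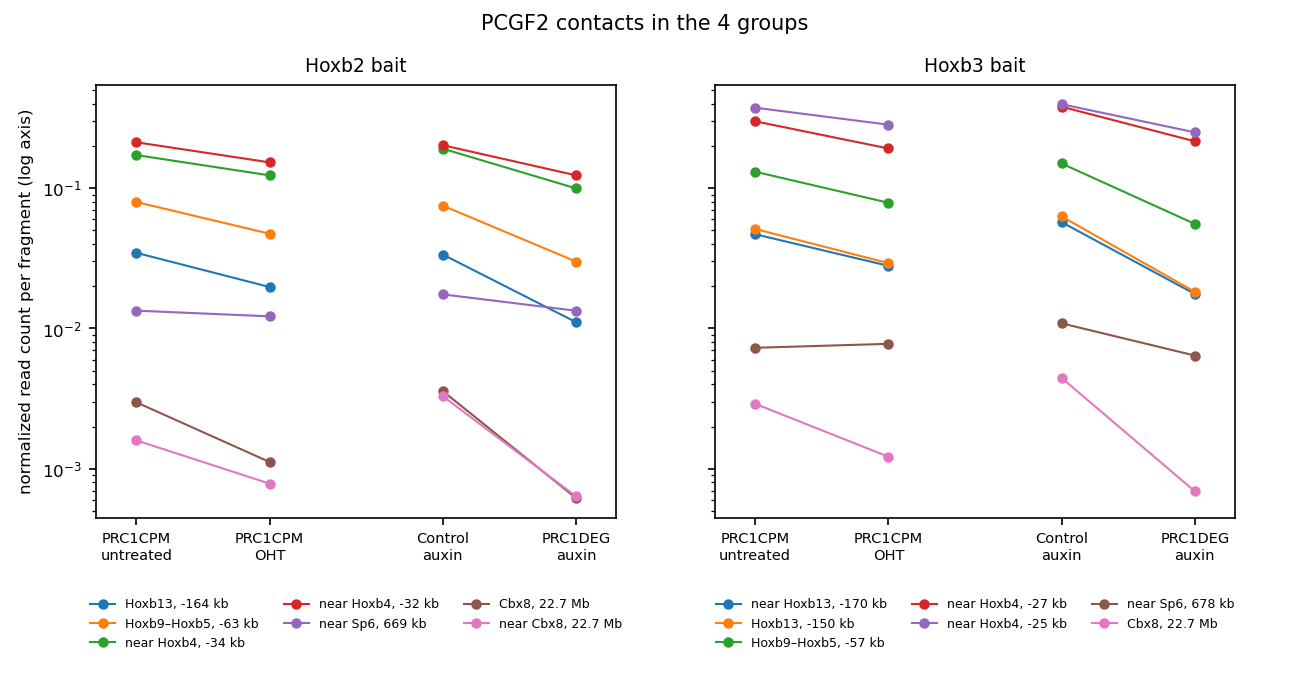
Normalized read count per fragment (log axis) of PCGF2 contacts in the 4 groups, for the Hoxb2 and the Hoxb3 bait, with distances from the bait in the legend. Lines join the 2 groups of 1 experiment. The contacts at Hoxb4 are the highest and those at Cbx8 the lowest, and the latter have the steepest lines. Of the 19 PCGF2 contacts 14 are drawn, none of them with at most 4 reads in every group.

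Outside the cluster on the side of Skap1, 1 PCGF2 site was reached, in Sp6, a zinc finger gene of tooth and skin. From Hoxb2, 1 fragment of Sp6 (chr11:97019450-97020397, 669 kb away) held 12, 10, 11 and 9 reads, and its percentages of 91.1% (40.3 to 206%) and 76.4% (32.5 to 180%) are not distinguishable from 100%. From Hoxb3 a wider stretch (chr11:97019450-97025948, 19 fragments) held 124, 121, 130 and 82 reads. It stood at 107% (83.1 to 137%) after OHT and at 58.9% (44.7 to 77.6%) in PRC1DEG cells. The Hoxb3 contact with Sp6 was therefore lower in the PRC1DEG group alone, and among PCGF2 contacts with more than 4 reads it was the 1 that was not lower after OHT.

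Cbx2 and Cbx8 lie side by side and encode CBX proteins of canonical PRC1. Cbx8 was reached by both baits from 22.7 Mb away, and Cbx2 by Hoxb3. The Hoxb2 bait had 2 PCGF2 contacts nearest to Cbx8. That with the Cbx8 TSS (chr11:119034882-119043663) held 32, 11, 27 and 5 reads, or 37.6% (19.2 to 73.6%) and 17.3% (6.89 to 43.5%).

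The intergenic contact 9.39 kb from the Cbx8 TSS (chr11:119050363-119055350), with the first sequence of an other end above, held 20, 9, 29 and 6 reads. It stood at 49.2% (22.8 to 106%) after OHT and 19.3% (8.24 to 45.4%) in PRC1DEG cells. After OHT its interval reached 100%, and that of the contact with the Cbx8 TSS did not. Both rest on 32 reads or fewer in any group.

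The Hoxb3 bait had more reads there, in 1 wider stretch that extends into Cbx2. This contact (chr11:119025559-119063300, 73 fragments) held 190, 73, 204 and 34 reads, or 42.0% (32.1 to 55.0%) after OHT and 15.6% (10.8 to 22.3%) in PRC1DEG cells. It was lower than the mid-cluster contact of the same bait in either experiment, with intervals that do not overlap. Those intervals cover counting error only. This far contact was included only through calls in untreated and Control cells, whereas the mid-cluster contact was also called after OHT. The lower percentages of the far contact are not independent of that choice.

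Summed over its 2 contacts, Hoxb2 had 52, 20, 56 and 11 reads, or 42.0% (25.2 to 70.0%) after OHT and 18.4% (9.72 to 34.7%) in PRC1DEG cells. The Hoxb2 and Hoxb3 baits differed by less than their intervals. The Hoxb1 bait, at the end of the cluster, had 1 contact beyond the Cbx8 TSS with 32, 18, 44 and 10 reads, or 61.5% (34.8 to 109%) and 21.2% (10.8 to 41.7%), which overlap the intervals of both.

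**Figure D3:**
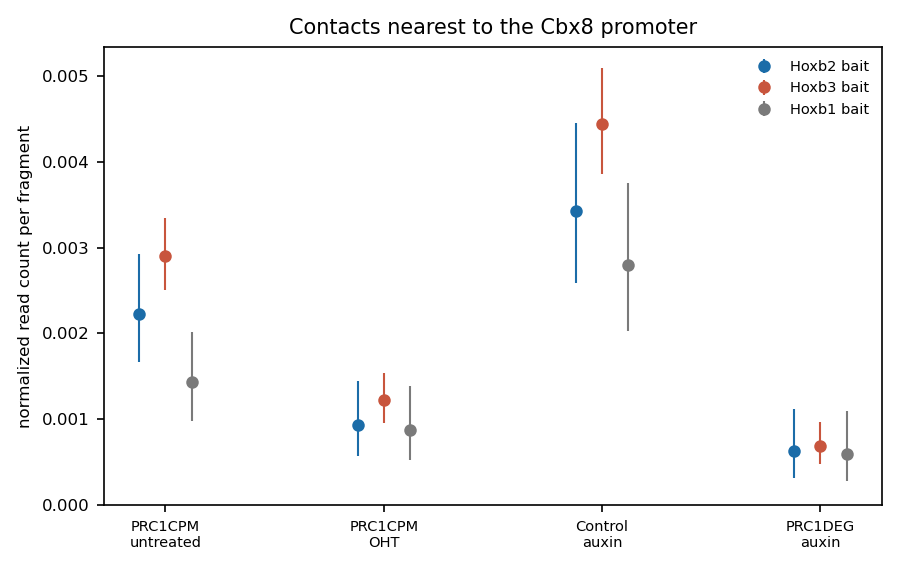
Normalized read count per fragment, summed over the contacts of the Hoxb2, Hoxb3 and Hoxb1 baits that lie nearest to the TSS of Cbx8, in the 4 groups. Bars are exact Poisson intervals (95%) of the reads and cover counting error only. In each experiment the treated group is the lower for all 3 baits, and the first pair of groups is not on the scale of the second.

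For Hoxb3, 3 PCGF2 contacts rested on 4 reads or fewer in every group. These were 2 neighbouring fragments at Lhx1, a LIM homeodomain gene 11.8 Mb away, and 1 intronic fragment of Tbx4, a T-box gene of the hindlimb 10.5 Mb away. At Lhx1, chr11:84524712-84525149 held 3, 1, 4 and 1 reads and chr11:84525150-84525679 held 1, 4, 1 and 0. At Tbx4, chr11:85892903-85894119 held 4, 1, 1 and 0. These counts are at or near the floor of 3 reads, so no ratio is given for them singly, although they enter the counts and medians over all 19.

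Counted by rule over both baits, 6 of the 19 PCGF2 contacts had a log2 change of -1 or lower after OHT, where 18.4% of all 414 contacts of named baits did, and 13 did in PRC1DEG cells, where the background was 26.8%. Among the 111 PCGF2 contacts of the other 22 named baits the shares were higher, at 49.5% and 78.4%. For these log2 changes a pseudocount of 0.000350 was added. Without contacts at 3 reads or fewer in both groups, chosen after seeing the data, the counts were 5 of 18 after OHT, where 16 were lower, and 11 of 17 in PRC1DEG cells, where all 17 were lower. The Wilson interval lay wholly below the reference for 13 of the 19 after OHT against a background of 22.9%, and for 15 in PRC1DEG cells against 26.1%, and for 55.0% and 67.6% of those 111. At the 40 contacts with other sites, 1 had a log2 change of -1 or lower after OHT and 0 in PRC1DEG cells, and 0 had an interval below the reference in either experiment. The 1 contact had 4 reads in untreated cells.

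The median log2 change of the PCGF2 contacts was -0.76 for Hoxb2 and -0.74 for Hoxb3 after OHT, and -1.44 and -1.77 in PRC1DEG cells. For contacts with other sites it was -0.14 and 0.20 after OHT, and 0.18 and 0.24 in PRC1DEG cells. All 284 contacts of named baits with other sites had a median of -0.17 after OHT and 0.09 in PRC1DEG cells. Relative to these, the PCGF2 medians were -0.59 and -0.57 after OHT, and -1.54 and -1.86 in PRC1DEG cells. Inside the cluster the median of both baits together was -0.69 after OHT and -1.12 in PRC1DEG cells, and over 1 Mb away it was -1.18 and -2.05. The far medians include the contacts at Lhx1 and Tbx4, with 4 reads or fewer in every group, and the pseudocount weighs most there. Without it the median percentages were 62.1% and 46.1% inside the cluster, and 37.0% and 16.6% over 1 Mb away. Apart from a fragment at Lhx1, called after OHT, the far contacts were included only through calls in untreated or Control cells. Their lower percentages are not independent of that choice. The other 22 named baits had 111 PCGF2 contacts with medians of -0.99 and -1.84. No test of the difference between these baits and the rest was possible with pooled columns.

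At contacts with other sites most intervals included 100%. The widest lay in introns of Skap1. From Hoxb2 (chr11:96550095-96564636) it held 616, 512, 382 and 361 reads, or 90.8% (80.8 to 102%) and 88.3% (76.5 to 102%). From Hoxb3 (chr11:96550095-96561603) it held 741, 672, 513 and 512 reads, or 99.1% (89.3 to 110%) and 93.2% (82.5 to 105%). None of the 4 intervals lay away from 100%, although these contacts had more reads than those with Hoxb4.

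A second stretch in Skap1 was reached by both baits. From Hoxb2 (chr11:96614528-96623749) it held 210, 190, 116 and 150 reads, or 98.9% (81.3 to 120%) and 121% (94.9 to 154%), and from Hoxb3 (chr11:96619555-96623749) 149, 159, 83 and 103 reads, or 117% (93.3 to 146%) and 116% (86.9 to 155%). A single fragment with an exon of Skap1 (chr11:96539974-96541708) gave 33, 30, 20 and 17 reads from Hoxb2 and 54, 58, 30 and 38 from Hoxb3. Its percentages lay between 79.4 and 118% with intervals that all include 100%. None of these values could be set apart from the reference at this depth.

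The remaining contacts with other sites that had the most reads were 1 further fragment with an exon of Skap1 for Hoxb2 and 2 stretches for Hoxb3. The former (chr11:96676549-96678270) held 24, 18, 25 and 23 reads. Hoxb3 reached the end of Copz2, a coatomer gene (chr11:96854820-96865544), with 288, 294, 267 and 254 reads, or 112% (94.9 to 131%) and 88.9% (74.9 to 106%). Its contact with a Skap1 intron at chr11:96536113-96537201 held 53, 55, 42 and 50 reads. Again no interval lay away from 100%.

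The 1 contact with another site on the side of Hoxb13 (chr11:96165592-96166423, intergenic, from Hoxb2) held 32, 22, 16 and 10 reads. It stood at 75.1% (43.9 to 128%) after OHT and 58.4% (27.0 to 126%) in PRC1DEG cells, so with these reads it could be set apart neither from 100% nor from the PCGF2 contact next to it. It and the 2 contacts with Sp6 are those within 1 Mb in which side and kind of site part. Over both baits, the 38 contacts with other sites on the side of Skap1 summed to 103% (97.5 to 108%) of untreated and 104% (97.6 to 110%) of Control cells, and the 2 with Sp6 to 105% (82.9 to 134%) and 60.3% (46.4 to 78.4%).

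In PRC1DEG cells 3 of the 40 contacts with other sites had intervals above 100%, all from Hoxb3. Of these, 2 lay in introns of Skap1, at chr11:96718944 with 28, 23, 6 and 18 reads, or 280% (115 to 685%) of Control cells, and at chr11:96727674 with 26, 21, 8 and 20 reads, or 234% (105 to 519%). The third lay in an intron of Nfe2l1, a stress-response transcription factor, at chr11:96824633 with 21, 16, 8 and 24 reads, or 280% (128 to 612%). Their counts in Control cells were 8 reads or fewer. After OHT 0 of the 40 had an interval above 100%, and among the 244 such contacts of the other named baits 16 did so in PRC1DEG cells.

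CHiCAGO weighs how far the reads of a fragment exceed those its distance from the bait would give, and a contact counts as called where its summit, 1 fragment fixed in the table for all 4 groups, reached a score of 5. Another fragment of the contact can score higher than the summit in a given group. Of the 19 PCGF2 contacts, 12 were called in untreated cells, where 63.3% of all contacts of named baits were, and 6 after OHT, where 30.0% were. In Control cells 11 were called against a background of 23.4%, and in PRC1DEG cells 0 against 7.97%. PCGF2 contacts of the other 22 named baits (111) had called shares of 66.7% (untreated), 8.11% (OHT), 52.3% (Control) and 2.70% (PRC1DEG). The 6 of 19 after OHT, or 31.6%, were thus near the background of all contacts but above the share of those 111. Among the calls at the 19, those at Lhx1 after OHT and in Control cells and that at Tbx4 in untreated cells rested on 4 reads each. Of the 12 and 6 called in PRC1CPM cells 3 were shared, and of the 11 called in Control cells 0 were called in PRC1DEG cells. The overlap of calls was not counted for the other baits, of whose 111 PCGF2 contacts only 3 were called in PRC1DEG cells. Every contact is in the table because it was called in at least 1 group, and 10 of the 19 and 34 of the 40 were called in 1 group only. At the other 22 named baits, 77 of 111 PCGF2 contacts and 205 of 244 contacts with other sites were called in 1 group only.

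The 3 PCGF2 contacts nearest to Cbx8 had summit scores of 5.58 to 25.8 in untreated cells and of 0 after OHT and in PRC1DEG cells, for both baits. In Control cells they scored 3.74 to 13.2, and that of Hoxb2 with the Cbx8 TSS was not called there. All 3 were included only through calls in untreated or Control cells, so their lower scores and percentages in the treated groups are not independent of that choice. The highest was that of the Hoxb2 contact near Cbx8, at 25.8 in untreated and 13.2 in Control cells. The mid-cluster contact of Hoxb3 instead scored 7.55 in untreated cells and 6.40 after OHT, and 12.5 in Control and 2.79 in PRC1DEG cells. The contact of Hoxb2 with the same region scored 4.46 in untreated cells and 5.96 after OHT, the opposite order to its reads, so a score and a read count are not the same measure of a contact.

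Contacts with other sites were called in 26 and 17 of 40 cases in untreated and OHT-treated PRC1CPM cells, and in 1 and 2 in Control and PRC1DEG cells. Their median summit score was 5.10, 4.24, 0.91 and 1.40 in the same order. For PCGF2 contacts it was 7.21, 3.28, 5.15 and 0. Most calls at other sites were thus in the PRC1CPM experiment, and 5 contacts were called in both of its groups. The other 22 named baits had 244 contacts with other sites, and their calls also lay mostly in the PRC1CPM experiment. Of these, 61.5% and 37.7% were called in untreated and OHT-treated cells, and 11.1% and 11.5% in Control and PRC1DEG cells.

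**Figure D4:**
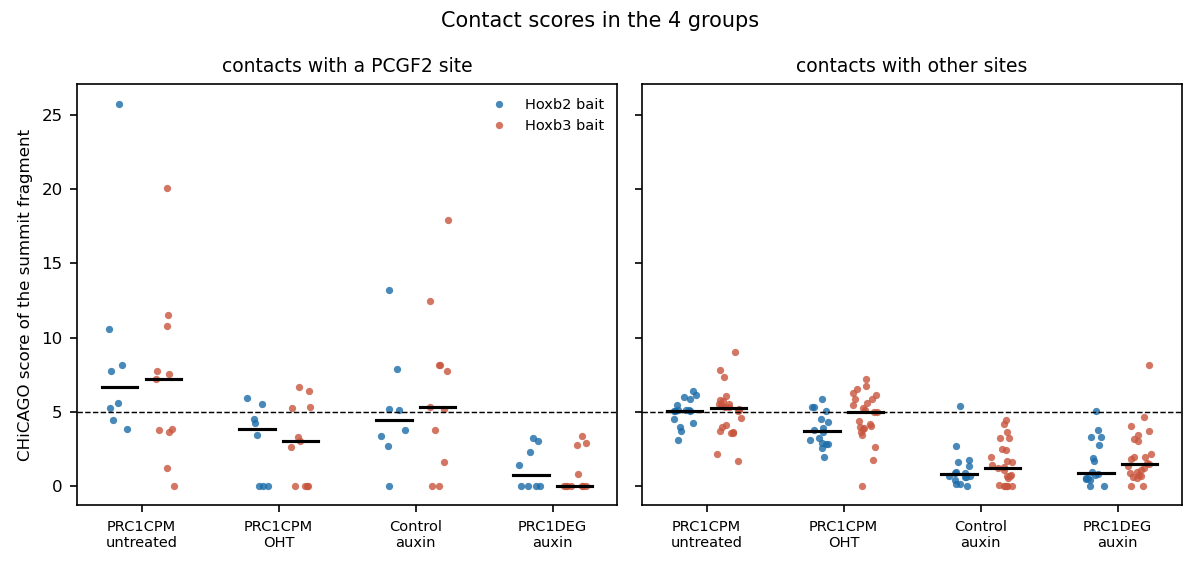
CHiCAGO scores of the summit fragments of Hoxb2 and Hoxb3 contacts in the 4 groups, at PCGF2 sites (left) and other sites (right). Each point is a contact, black bars are the medians of each bait and the dashed line marks the threshold of 5. All points of PRC1DEG cells at PCGF2 sites lie under the line.

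The neighbouring baits overlapped at 16 pairs of other ends, 9 at PCGF2 sites and 7 at other sites, of which 7 were identical. At these pairs the Hoxb3 bait had the higher normalized count per fragment in 12, 14, 15 and 15 of 16 cases in the 4 groups. This also depends on how well each bait was captured. Pairs that are not identical compare stretches of unlike width, and some contacts recur across pairs. At the 7 identical ends Hoxb3 was the higher in 6, 7, 7 and 7 cases. The log2 ratio to the reference from Hoxb2 minus that from Hoxb3 had a median of -0.10 after OHT and of 0.10 in PRC1DEG cells. Its interval included 0 at all 16 pairs after OHT and at 15 in PRC1DEG cells. The exception was the mid-cluster region, where Hoxb2 lay 0.11 (0.0036 to 0.21) above Hoxb3. The baits are not replicates of one another.

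**Figure D5:**
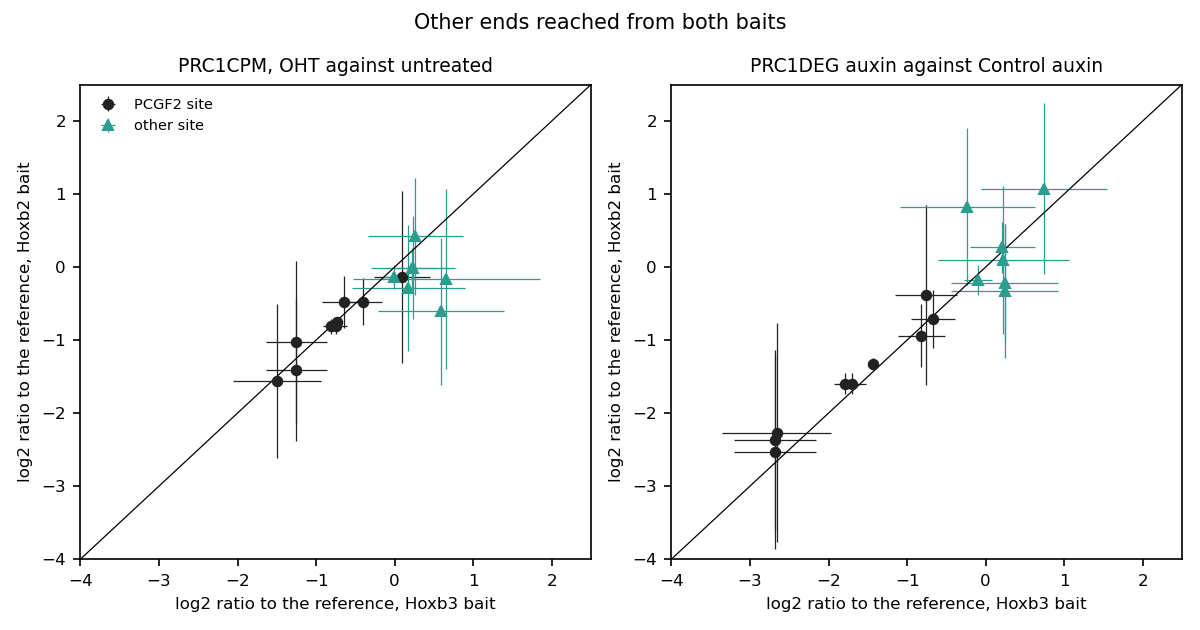
Log2 ratio of normalized read counts to the reference group at the 16 pairs of overlapping other ends, from the Hoxb2 bait (vertical) and from the Hoxb3 bait (horizontal). Bars are 95% Wilson intervals and the line marks equality. Black points (PCGF2 sites) lie to the lower left and green triangles (other sites) around 0, and most bars cross the line.

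Beside the other HoxB baits, Hoxb5 with 8 PCGF2 contacts had medians of -0.63 after OHT and -1.67 in PRC1DEG cells, and Hoxb1 with 12 had -0.61 and -0.86. Among the 16 named baits with at least 3 PCGF2 contacts, the pair of medians nearest to that of Hoxb2 was that of Hoxb5, followed by Fli1 and Hoxb3, and nearest to Hoxb3 were Hoxb5, Dlx2 and Fli1. Counted from the lowest median, Hoxb2 and Hoxb3 ranked 12 and 13 of 16 after OHT and 13 and 10 in PRC1DEG cells. Hoxb5 and Hoxb1 ranked 14 and 15 after OHT and 11 and 16 in PRC1DEG cells. The HoxB baits share contacts and lie within 1 cluster, so these ranks are not independent of each other.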

How the data were processed

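CaptureC libraries of 12 ESC samples (4 groups of 3 replicates) were analysed from 1 deposited table and 1 deposited list of baits. The authors mapped reads to mm10 with HiCUP and Bowtie2, scored merged replicates with CHiCAGO and joined those scoring 5 or more anywhere and lying fewer than 10 DpnII fragments apart. Versions of HiCUP and CHiCAGO are not given in the sources used here. The deposited signal values are weighted reads scaled to the captured-promoter reads and to how many promoters were captured, and the deposited score values are CHiCAGO scores. Signal was used as its sum over the fragments of a contact, score as this sum and at the summit fragment. Groups came from the sample labels and were tied to columns through their names. The 4 columns of summit signal were not used.

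Signal values were divided by the number of fragments. The smallest steps between values gave 1 weighted read per bait and library, and 100% of the 842 values in each library came out whole at a tolerance of 0.1 reads. All reads given for contacts are such weighted reads of merged replicates, not raw sequenced reads. The intervals treat them as plain counts, and whether their error follows that of counts was not tested. Since a read is worth different amounts in different libraries, percentages are not ratios of the reads printed. Auxin libraries had 2 sizes of step, and both baits fell in the set of 19 baits. Percentages carry 95% Wilson intervals, summed reads exact Poisson intervals, and differences of 2 log2 ratios normal intervals from the reads. With 1 column per group no test was run, and limma, planned for columns per replicate, was not used. No ratio of a single contact is given where both groups had 3 reads or fewer, and such contacts stay in counts and medians.

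The build was checked by finding both oligonucleotides of each bait, and GATC at the start of each other end, in GRCm38. Genes were those of GENCODE M21 (basic, protein coding). The HoxB cluster is the span from Hoxb13 to Hoxb1 (174 kb). Counts and medians cover all members. PCGF2 contacts are described, apart from 2 that are not reported here, as are contacts with other sites inside the cluster (0) and, outside it, the 5 per bait with the most reads in the 2 reference groups. Other contacts were named after their values were seen. A contact is named by the TSSs in it, otherwise by the nearest. The members and lists were chosen with earlier results of these data known. Alternatives were the pseudocount, summed values, filters on low reads, centring, place in the cluster, score thresholds and overlap. The recovery of reads and the intervals were tested on simulated counts. Python 3.11.15, numpy 2.4.6, scipy 1.17.1, pandas 2.3.3, pysam 0.24.0 and matplotlib 3.10.9 were used.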

Additional observations from a re-analysis of the deposited data

Results flagged for a closer look

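At 9 contacts described here the percentage of the reference kept in PRC1DEG cells differed from that kept after OHT by more than counting error. The ratio of the 2 percentages, PRC1DEG over OHT, is given with its 95% interval. At the other 22 named baits this interval lay below 1 for 28 of 111 PCGF2 contacts and above 1 for 0. For their 244 contacts with other sites it lay below 1 for 2 and above 1 for 16. The experiments differ in cell line, agent and duration, columns are pooled, and the difference was not tested over replicates.

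Of these contacts 7 were at PCGF2 sites and had ratios below 1. From Hoxb2 the ratio was 0.578 (0.51 to 0.65) at Hoxb13 and 0.672 (0.63 to 0.72) at Hoxb9 to Hoxb5. From Hoxb3 it was 0.517 (0.44 to 0.61) upstream of Hoxb13, 0.508 (0.45 to 0.57) at Hoxb13 and 0.618 (0.58 to 0.65) at Hoxb9 to Hoxb5. Outside the cluster Hoxb3 had ratios of 0.553 (0.38 to 0.80) at Sp6 and 0.371 (0.24 to 0.58) at Cbx2 and Cbx8. At Hoxb4 the intervals of all 4 ratios included 1.

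The remaining pair were contacts of Hoxb3 with other sites, with ratios of 3.12 (1.06 to 9.16) in Skap1, nearest to Snx11, and 3.37 (1.20 to 9.44) in Nfe2l1. They had 6 and 8 reads in Control cells.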

How the results depend on the processing

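No log2 change whose counting interval left out 0 changed sign. The 4 medians over PCGF2 contacts stayed below 0 under all 32 alternatives, and of 472 alternative values of single contacts 452 stayed within the counting interval, 20 moved outside it. Of the values not set apart from 0, 16 of single contacts crossed it, 15 of them on centring, and 2 medians of contacts with other sites. A pseudocount 10 times larger brought the medians to -0.48 (Hoxb2, OHT), -0.75 (Hoxb2, PRC1DEG), -0.54 (Hoxb3, OHT) and -0.81 (Hoxb3, PRC1DEG). For Hoxb3 in PRC1DEG cells, sums over fragments gave -1.43, contacts with at least 10 reads in Control cells -1.55, and values under 3 reads set to 3 gave -0.82. This median thus rests in part on the contacts with few reads at Lhx1 and Tbx4. Centring on contacts of all baits with other sites gave -0.57 for Hoxb3 after OHT, and centring on the same bait's contacts with other sites, chosen after seeing the data, gave -0.94 (Hoxb3, OHT), -1.62 (Hoxb2, PRC1DEG) and -2.01 (Hoxb3, PRC1DEG). Outside the cluster the medians were -1.05 (Hoxb3, OHT), -1.79 (Hoxb2, PRC1DEG) and -2.08 (Hoxb3, PRC1DEG), and inside it -1.12 in PRC1DEG cells for both baits.

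Counts depended on the threshold. With a score of at least 3, PCGF2 contacts were called 11 times after OHT and 3 times in PRC1DEG cells. With a score of at least 10 the counts were 5, 0 and 3 in untreated, OHT and Control cells, and with a mean score of at least 5 they were 4, 1 and 6. With a log2 change of -0.5 or lower, or an interval below 0, 13 PCGF2 contacts were lower after OHT, in place of 6 at -1. The median of the Hoxb2 contacts with other sites in PRC1DEG cells was 0.18, and -0.04 with at least 10 reads, and after OHT it was -0.14, and 0.02 when centred on contacts of all baits with other sites. For the 16 overlapping pairs, an overlap of at least 0.5 of the shorter end gave 16 again.

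No paired analysis was possible because each deposited column pools the 3 replicates of a group, and for the same reason leaving out single replicates was not run. Counting error is the only error that can be given. It is narrow inside the cluster and wide at the far contacts of Hoxb2, where no group had more than 32 reads in a contact.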

Other observations

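One DpnII fragment near Cbx8 (chr11:119053685-119054411), 22.7 Mb from the cluster, lay in a contact of every HoxB bait in the list. From Hoxb2 it was in a contact of 14 fragments with 20, 9, 29 and 6 reads in untreated, OHT, Control and PRC1DEG cells, from Hoxb3 in 1 of 73 fragments with 190, 73, 204 and 34, and from Hoxb1 in 1 of 25 fragments with 32, 18, 44 and 10. From Hoxb5 it was a contact by itself with 1, 0, 4 and 0 reads. The contacts differ in width, so the counts cannot be compared between baits.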
